A study of Bos taurus with 20 samples.

Results

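The genes described here are 10 platelet genes, of 37063 genes in the count tables of maternal blood: PF4, PPBP, ITGA2B, ITGB3, GP1BA, GP9, GP6, TUBB1, SELP and THBS1. They are commonly used as markers of platelets and of their parent cells, the megakaryocytes. Members were chosen by their cattle symbol, which the NCBI cattle gene table links to the Entrez identifiers of the tables, and all 10 were found and passed the filter on low counts (at least 10 counts in at least 5 cows). The rule uses no measured value.

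Whole blood was drawn from the tail of 20 recipient cows (Bos taurus, female) on day 63 of gestation into tubes that lyse cells and stabilise RNA, 1 library per cow. All cows carried a female fetus of beef breed from X-sorted semen, transferred as an embryo produced in vitro, and no non-pregnant or other control group was analysed here. The variable of the study was the weight of the calf at birth (calf BW), 45.0 ± 10.1 kg (SD, n = 20), from 30 to 72.5 kg. The age of the cows was not in the labels, and the paper gives it only as a range of years. The paper names the recipients both as Angus and as lactating dairy cows, so no breed is given here. Cows are named below by the weight of their calf, which differed for every cow. The cow with the 72.5 kg calf, whose nearest neighbour had a calf of 56 kg, was left out of the slopes on calf BW, as in the methods of the study. Total counts ran from 24632077 in the cow with the 30 kg calf to 39892111 in the cow with the 40 kg calf, with a median of 33412740, and had a correlation of -0.091 with calf BW.

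Platelets are cell fragments without a nucleus that megakaryocytes shed from the bone marrow into the blood, and their RNA is what the megakaryocyte packed into them. They stop bleeding in steps: GPIb-IX-V binds von Willebrand factor on a damaged vessel wall, GP6 binds collagen and signals, granules release their cargo, and the integrin αIIbβ3 binds fibrinogen and links platelets into a plug. Bulk blood RNA mixes platelets with leukocytes and young red cells, so that fewer platelets and less RNA per platelet cannot be told apart in any value below.

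Levels are given first, as CPM, counts scaled to a common library size with the TMM correction, which adjusts for library size but not for transcript length, so that they compare cows for 1 gene and not genes with each other. Platelet RNA was present in all 20 cows. The summed CPM of the 10 genes ran from 704 in the cow with the 45 kg calf to 1974 in the cow with the 54 kg calf, with a median of 1080. The cow with the 54 kg calf had the highest CPM for 7 of the 10 genes and the next highest for the other 3.

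The fibrinogen receptor is a dimer of the integrin chains encoded by ITGA2B (Entrez 515011) and ITGB3 (282642). ITGA2B had a lowest CPM of 58.9 in the cow with the 38 kg calf, a median of 76.2 and a highest of 121 in the cow with the 56 kg calf. Its next highest value was 116, in the cow with the 54 kg calf. ITGB3 had a lowest CPM of 137 in the cow with the 46 kg calf, a median of 259 and a highest of 377 in the cow with the 54 kg calf. The partners therefore shared the cow with the 54 kg calf among their high values, but the cow with the 56 kg calf was highest for ITGA2B and at 151 CPM for ITGB3, and the cow with the 46 kg calf was at 109 CPM for ITGA2B.

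GP1BA (504977) and GP9 (617668) encode chains of the von Willebrand factor receptor. GP1BA was near the floor of detection and had no count in 4 cows, those of the 38, 45, 49.5 and 56 kg calves, where 3 counts, the limit that a count of 0 allows, would be 0.0904, 0.102, 0.0750 and 0.117 CPM. Its median was 0.247 CPM and its highest 1.94 in the cow with the 54 kg calf, and 9 cows had 10 counts or more. GP9 had a lowest CPM of 0.389 in the cow with the 56 kg calf, a median of 1.66 and a highest of 4.46 in the cow with the 54 kg calf, from 10 to 161 counts. The cow with the 54 kg calf stood above all 19 others for both chains. GP6 (100336616), the collagen receptor, had a lowest CPM of 5.56 in the cow with the 56 kg calf, a median of 10.7 and a highest of 14.6 in the cow with the 38 kg calf. For GP6 the cow with the 54 kg calf was next to the highest, at 13.9.

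PF4 (507790) and PPBP (613723) encode CXC chemokines stored in the alpha granules. PF4 had a lowest CPM of 124 in the cow with the 72.5 kg calf, a median of 235 and a highest of 671 in the cow with the 54 kg calf, where the next highest cow, with the 50 kg calf, had 401. PPBP had a lowest CPM of 4.88 in the cow with the 35 kg calf, a median of 10.7 and a highest of 23.0 in the cow with the 54 kg calf. These are neighbouring genes of a chemokine family, and the treatment of reads that fit more than 1 gene was not given in the sources used here. SELP (281486), P-selectin, is an adhesion receptor kept in the granule membrane, and THBS1 (281530), thrombospondin 1, is an adhesive granule protein. SELP had a lowest CPM of 4.63 in the cow with the 46 kg calf, a median of 9.28 and a highest of 22.1 in the cow with the 37 kg calf, with 21.1 in the cow with the 54 kg calf. THBS1 had a lowest CPM of 38.7 in the cow with the 56 kg calf, a median of 77.1 and a highest of 135 in the cow with the 54 kg calf. In the ARS-UCD2.0 gene table THBS1 overlaps FSIP1, which had a median of 3 counts, and ITGA2B overlaps the non-coding gene LOC132343085, which had no count in any cow. TUBB1 (541271), the beta-tubulin of the microtubule ring that shapes platelets, had a lowest CPM of 234 in the cow with the 72.5 kg calf, a median of 387 and a highest of 611 in the cow with the 54 kg calf.

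**Figure D1:**
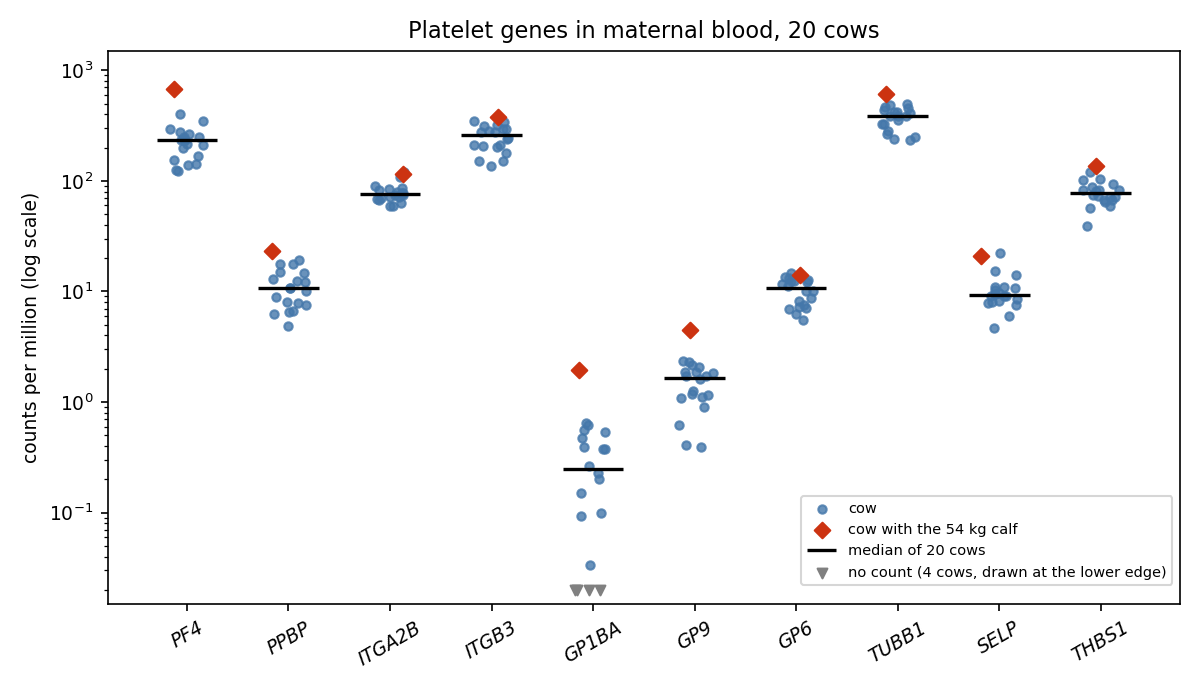
CPM on a log axis (vertical) of each of the 10 platelet genes (horizontal) in 20 cows, with dots for cows, a black bar for the median and red diamonds for the cow with the 54 kg calf. The red diamond is the highest point for 7 genes, and 4 cows with no GP1BA count are drawn as triangles at the lower edge.

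All 10 genes varied more between cows than the median gene. Their coefficients of variation over 20 cows ran from 21.8% for ITGA2B to 124% for GP1BA, against a median of 15.6% over the 16206 genes tested. PF4 had 50.0% and 84.5% of tested genes varied less, PPBP had 42.5% and GP9 had 56.0%. These values include the cow with the 54 kg calf, which was highest for each of these genes. For PF4 it had 671 CPM, where the next highest cow had 401. GP1BA had a median of 8 counts per cow. Its value includes the cow with the 54 kg calf, at 1.94 CPM from 70 counts, where the next highest cow had 0.646 CPM.

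The question of co-variation is whether the genes of 1 cell type rose and fell together from cow to cow. Correlations are Pearson's r of log2 CPM over 20 cows, 45 pairs in all, with two-sided permutation tests of 100000 resamples and Benjamini-Hochberg adjustment over the 45 pairs computed. Of the 45 pairs 29 had r above 0.5, where 3.62% of the 131309115 pairs of tested genes did, and 13 had r above 0.7, where 0.419% did. The median r was 0.58, against -0.0020 over all gene pairs. An adjusted p below 0.05 was reached by 30 pairs with Pearson's r and by 21 with Spearman's rho. Without the 2 cows farthest from the median of the first gene of each pair, 21 of the 45 pairs had r above 0.5. Because the genes were chosen as markers of 1 cell type with earlier results of these data known, these counts describe the set.

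By Pearson's r over 20 cows the tightest pair joined the integrin chain ITGB3 and the tubulin TUBB1, with r = 0.86 and rho = 0.80 (permutation p = 1e-05 for r, the smallest the resamples can give, adjusted p = 0.000112). PF4 followed GP6 and TUBB1 with r = 0.83 each. The receptors GP9 and GP6 had r = 0.82 and rho = 0.87, the highest rho of all pairs. All 3 pairs had the same permutation p and adjusted p for r as ITGB3 and TUBB1. The chains GP1BA and GP9 of the von Willebrand factor receptor had r = 0.68 and rho = 0.54 (permutation p = 0.00083, adjusted p = 0.00267). For the neighbouring chemokine genes PF4 and PPBP r was 0.43 and rho 0.30 (permutation p = 0.0539, adjusted p = 0.0757), which did not pass. It moved with single cows, from r = 0.24 without the cow with the 54 kg calf to 0.57 without that with the 50 kg calf, and passed without the cows with the 72.5, 50 and 49.5 kg calves, each left out alone (r = 0.50, 0.57 and 0.52, permutation test, adjusted p = 0.043, 0.0194 and 0.0317). PPBP had r = 0.66 with ITGB3, and 0.072 and 0.093 with GP1BA and THBS1.

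ITGA2B stood apart from the other 9 genes. Its 9 correlations ran from -0.31 with ITGB3 to 0.077 with PF4, with a median of -0.12, and none passed over 20 cows. The 36 pairs without ITGA2B had a median r of 0.63 and a lowest r of 0.072, and held all 29 pairs above 0.5 and all 30 that passed. With its dimer partner ITGB3, ITGA2B had r = -0.31 and rho = -0.23 (permutation p = 0.18, adjusted p = 0.231), and -0.46 without the 2 cows farthest from the median of ITGA2B. Without the cow with the 54 kg calf, which was high for both, r was -0.57 (permutation test, adjusted p = 0.0263 over the 45 pairs), and r with GP9 and THBS1 was -0.60 and -0.56 (adjusted p = 0.0221 and 0.0311). For ITGA2B and ITGB3, over all single cows left out, r lay between -0.57 and -0.15.

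**Figure D2:**
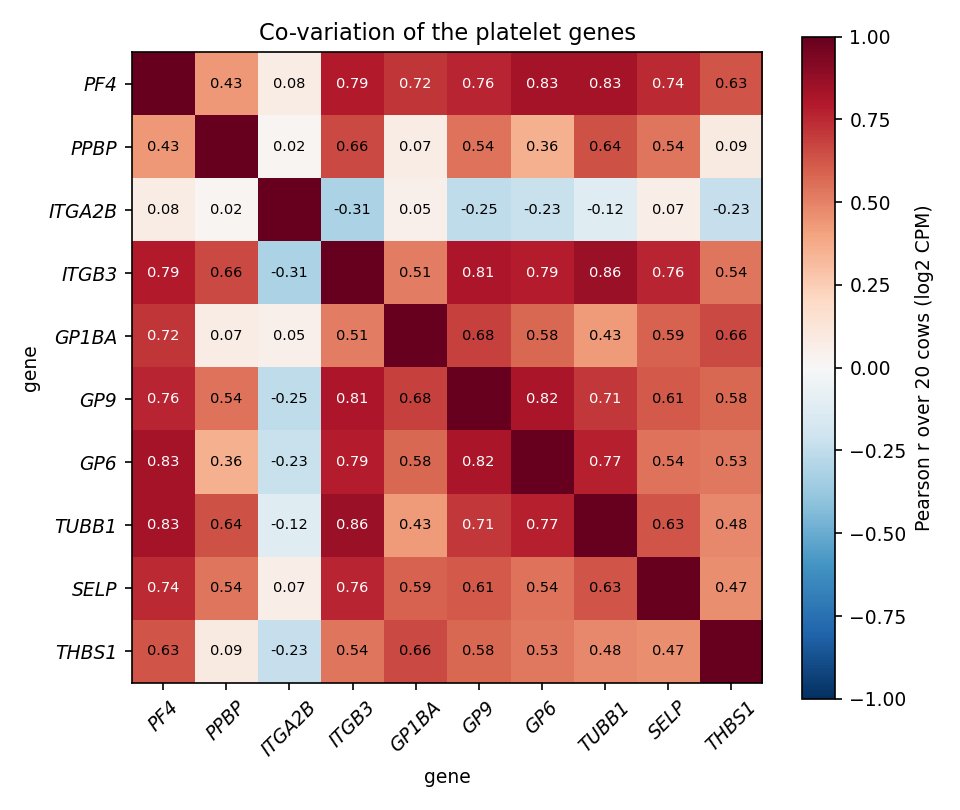
Pearson r over 20 cows between each pair of the 10 platelet genes on the log2 CPM scale, from blue (-1) to red (1), with the value printed in each cell. The row and column of ITGA2B hold values between -0.31 and 0.08, and 29 of the other 36 pairs are above 0.5.

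**Figure D3:**
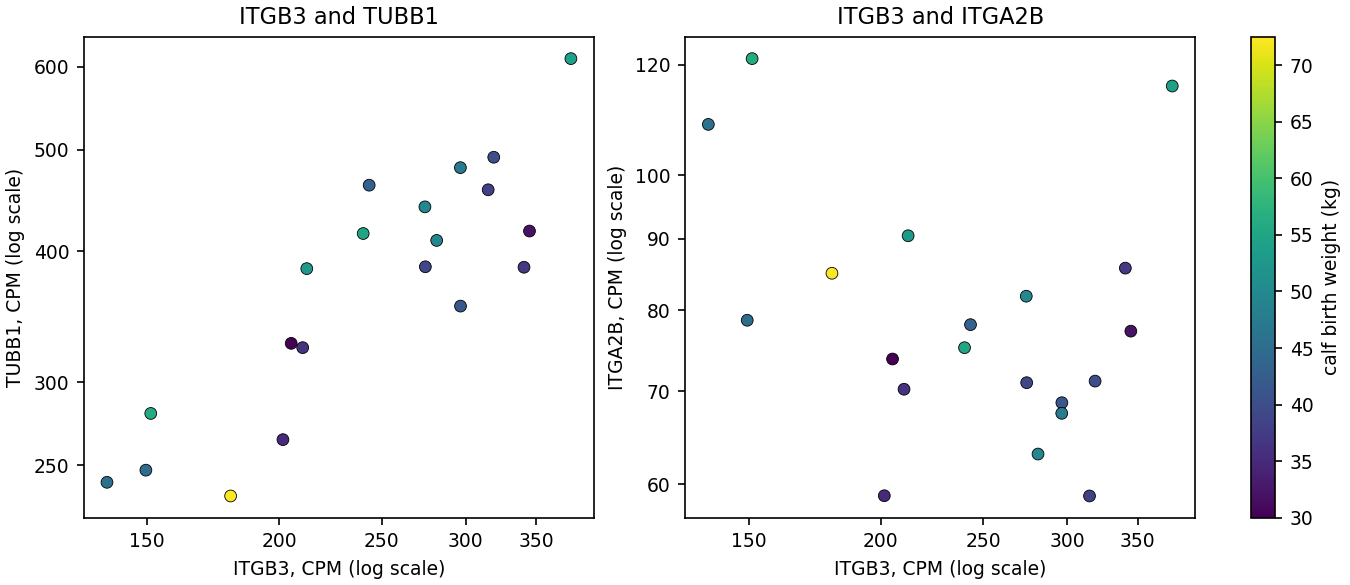
CPM of TUBB1 (left) and of ITGA2B (right) against CPM of ITGB3 in 20 cows, both axes on a log scale, 1 dot per cow coloured by calf BW in kg. TUBB1 rises with ITGB3 (r = 0.86), and ITGA2B does not (r = -0.31), with the cow with the 54 kg calf at the upper right of both panels.

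Each gene was also set against the mean z-score of the other 9. PF4 followed it best, with r = 0.92, then ITGB3 with 0.85, GP9 and TUBB1 with 0.82, GP6 with 0.78 and SELP with 0.77. GP1BA had 0.66, THBS1 0.57, PPBP 0.50 and ITGA2B -0.13. Over all 10 genes the mean z-score was 1.89 in the cow with the 54 kg calf and 0.68 in the cow next to it, with the 37 kg calf. The lowest scores were -1.19, -1.13 and -0.99, in the cows with the 45, 56 and 46 kg calves. The cow with the 54 kg calf lay farthest from the others, and without it the median r over the 45 pairs was 0.47 and 22 pairs passed, 19 of them positive and 3, all of ITGA2B, negative, where all 30 were positive over 20 cows.

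Outside the set, the gene whose pattern was most like the mean z-score of the 10 was LOC404103, which the gene table lists with the synonym BPTI, with r = 0.95 over 20 cows. RILPL2 followed with 0.94, then GP1BB, MYL9 and FHL1 with 0.91, GRAP2, CLU and S100A1 with 0.90, and RNF10 and PROCR with 0.88. GP1BB encodes another chain of the von Willebrand factor receptor, MYL9 a myosin light chain of platelet contraction, CLU the granule protein clusterin and GRAP2 an adaptor of receptor signalling. Of the 16196 other tested genes, 4.09% had r above 0.5 with this score. The nearest gene differed from member to member: it was FHL1 for ITGB3 (r = 0.96), GP1BB for GP1BA (0.79), GMPR for GP9 (0.89), PDZK1IP1 for GP6 (0.90), LOC112445030 for TUBB1 (0.90), MYL9 for SELP (0.86), LOC404103 for PF4 (0.94) and SKP1 for PPBP (0.81). For ITGA2B it was the linker histone gene H1-2 (0.90), and for THBS1 it was DGAT2 (0.88), an enzyme of triglyceride synthesis.

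A wider set of 53 genes was compared by role: adhesion and surface proteins, granule cargo, signalling, cytoskeleton and the transcription factors of megakaryocytes. Of these 46 were tested, and TIMP3, P2RY12, F2RL2 and ALOX12 had no count in any cow. P2RY12 encodes the ADP receptor of platelets that clopidogrel blocks. Because ITGB3 and ITGA2B differed, each of the 46 genes was set against both, 92 relations in one family, a comparison added after their values were seen. A gene is said to follow ITGB3 or ITGA2B where its r was above 0.5. With ITGB3, 15 genes did so, against 4.21% of tested genes, and with ITGA2B 8 genes did so, against 6.91% of tested genes. With neither, 23 genes did so. No gene was above 0.5 with both, but neither was any of all tested genes (0%), so that this is not particular to the 46.

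The 15 genes that followed ITGB3 were unevenly spread over the roles. They were 4 of 8 tested surface genes, 3 of 8 of cargo, 2 of 12 of signalling, 4 of 9 of the cytoskeleton and 2 of 9 regulators. Among surface proteins they were GP1BB, GP5, TREML1 and MPIG6B, and among cargo VWF, CLU and NRGN. Signalling gave P2RY1, the other ADP receptor, and GNG11, a G protein subunit, and the cytoskeleton gave MYL9, TUBA4A, PARVB and MYLK, the kinase of myosin light chains. The regulators were NFE2 and TAL1, both transcription factors of megakaryocytes. Over the 9 regulators tested the median r with ITGB3 was -0.065, and over the 12 signalling genes it was 0.066. GNG11 had r = 0.94, CLU and MPIG6B 0.92, MYL9 0.90, MYLK 0.87, and VWF and TUBA4A 0.86 (permutation p = 1e-05, the smallest possible, and adjusted p = 0.000102 for each of these 7). By Spearman NRGN, P2RY1, PARVB and NFE2 did not pass (adjusted p from 0.107 to 0.235). P2RY1 did not pass by Pearson either (r = 0.53, permutation test, adjusted p = 0.0631).

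The 8 genes that followed ITGA2B were CD9, SRGN, RGS18, VCL, TPM1, GATA1, GFI1B and ZFPM1. CD9, a tetraspanin of the platelet surface, had r = 0.83, and GATA1, a transcription factor of megakaryocytes, red cell precursors, eosinophils and mast cells, had r = 0.81 (permutation p = 1e-05 and adjusted p = 0.000102 for both). Its partner ZFPM1 had 0.70, SRGN, the granule proteoglycan serglycin, had 0.54 and GFI1B, a transcriptional repressor, had 0.77. RGS18, a regulator of G protein signalling, had 0.77, and the cytoskeletal genes TPM1 and VCL had 0.72 and 0.71. VCL and SRGN did not pass by Spearman (adjusted p = 0.0804 and 0.138) and had r = 0.42 and 0.29 without the 2 farthest cows. Against ITGB3 the values were -0.27 for CD9, -0.48 for GATA1, -0.46 for ZFPM1, -0.47 for RGS18, 0.0088 for VCL, 0.062 for SRGN, -0.56 for GFI1B and -0.58 for TPM1, and the last 2 passed by Pearson (permutation test, adjusted p = 0.0456 and 0.0332) but not by Spearman (adjusted p = 0.236 and 0.138), with r = -0.38 and -0.32 without the 2 farthest cows. An adjusted p below 0.05 was reached by 16 genes with ITGB3, 14 of them positive, and by 10 with ITGA2B, 8 of them positive, where Spearman gave 11 and 7. The share of all tested genes that passes this test is not given here, so these counts only describe the 46 genes.

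**Figure D4:**
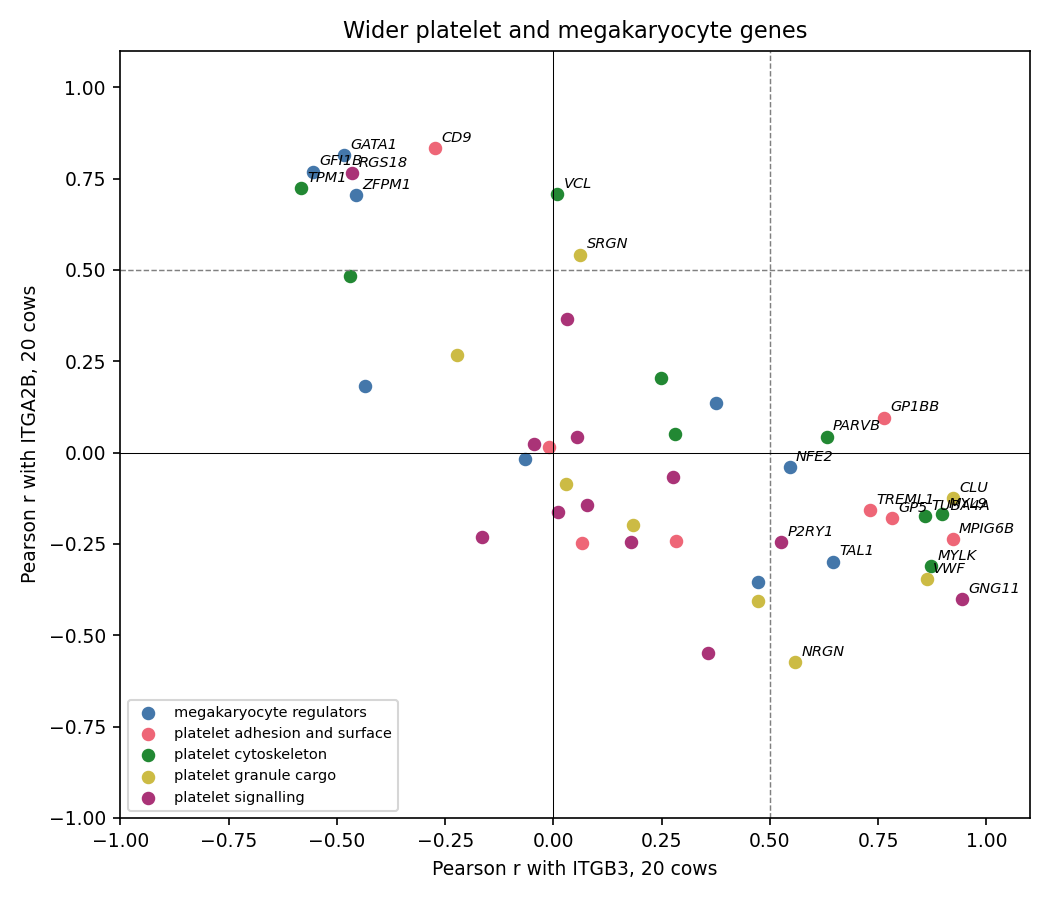
Pearson r over 20 cows of 46 wider platelet and megakaryocyte genes with ITGB3 (horizontal) and with ITGA2B (vertical), on log2 CPM, 1 dot per gene coloured by role, with dashed lines at 0.5. The 15 named genes at the right had r above 0.5 with ITGB3 and the 8 at the top with ITGA2B, and 0% of all tested genes were above 0.5 with both.

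Markers of other blood cells were measured beside the platelet genes, as the summed CPM of 8 lists, with total count, the percentage of mitochondrial counts and the number of genes with a count as 3 further measures, 110 relations in all. ITGA2B had r = 0.80 and rho = 0.81 with the eosinophil sum (permutation p = 3e-05, adjusted p = 0.0011), and 0.76 without the 2 cows farthest from the median of that sum. None of the other 9 genes had r above 0.5 with the eosinophil sum, where 8.46% of all tested genes did, and GP9 had r = -0.56 (permutation test, adjusted p = 0.0497), which was -0.35 without the 2 farthest cows. ITGB3 had r = -0.52 (permutation test, adjusted p = 0.0757) and -0.36 without those cows, and 2 of the 10 genes were below -0.5, where 4.67% of all tested genes were. The sum ran from 22.6 to 205 CPM, highest in the cows with the 56 and 46 kg calves, which were also among the 3 highest for ITGA2B. It rested on IL5RA, the interleukin 5 receptor, with a median of 58.8 CPM, while CCR3, the eotaxin receptor of eosinophils, had no count in any cow, and LOC617374 and LOC783660, both with the synonym PRG3 (a granule protein), had medians of 2.31 and 0.328 CPM. The part of these markers in the ITGA2B values was not tested beyond the fit given with calf BW.

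THBS1 moved with markers of neutrophils and monocytes. Its r was 0.81 and rho 0.86 with the neutrophil sum (permutation p = 2e-05, adjusted p = 0.0011) and 0.75 with the monocyte sum (permutation p = 0.00015, adjusted p = 0.00412). The neutrophil sum, whose gene of highest median CPM was CSF3R at 1841, ran from 3183 to 5845 CPM. All 8 genes of this sum had a count in every cow. CSF3R is included in the sum. It passed for 7 of the 10 genes (permutation test, adjusted p below 0.05), and 8 of the 10 had r above 0.5 with it, where 6.57% of all tested genes did. By Spearman it passed for THBS1 alone of the 10, and without the 2 cows farthest from its median 3 of the 10 had r above 0.5. The monocyte sum, led by VCAN at 470 CPM and with CX3CR1 at 0 in all cows, passed for 5 genes, of which ITGA2B was negative (r = -0.57, permutation test, adjusted p = 0.0424), and by Spearman it passed for THBS1 alone of the 10. Of the 10, 4 had r above 0.5 and 1 below -0.5 with it, where 6.44% and 6.17% of all tested genes did, and without the 2 farthest cows 1 had r above 0.5. That negative relation rested on 2 cows, since r was -0.085 without those farthest from the median.

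ITGB3 moved with the depth of the library, with r = 0.72 and rho = 0.78 with total count (permutation p = 0.00041, adjusted p = 0.00752), and TUBB1 and GP6 did so with r = 0.64 and 0.56 (permutation test, adjusted p = 0.0193 and 0.0457), of which GP6 did not pass by Spearman (adjusted p = 0.087). Of all tested genes 1.48% had r above 0.5 with total count, and 5 of the 10 platelet genes did, while 1.04% of all tested genes and 0 of the 10 were below -0.5. Without the 2 farthest cows 3 of the 10 had r above 0.5. CPM are already divided by the library size. With total count held constant as a partial correlation, the median r over the 45 pairs was 0.47 and 19 pairs passed, and with the neutrophil sum held constant it was 0.37 and 15 pairs passed. The part of depth and of neutrophil markers in the co-variation was not tested further.

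The endothelial sum passed for 6 genes, but it contains VWF, which platelets also hold. It also contains PECAM1, its gene of highest median CPM (56.5), which leukocytes and platelets share. Of the 10, 8 had r above 0.5 with it, where 5.88% of all tested genes did, and 4 of the 10 did without the 2 farthest cows. By Spearman PF4, ITGB3 and GP6 passed. Of its other markers, ROBO4 had no count in 13 cows and EMCN in 6, and the medians of ERG, TIE1, KDR, CDH5 and TEK were 10.6, 2.45, 1.56, 1.43 and 1.16 CPM, with a count in every cow. The part of endothelial markers in the result was not tested. The erythroid sum, led by HBB at a median of 103 CPM, passed for GP1BA and GP9, both with r = 0.59 (permutation test, adjusted p = 0.0296 and 0.036), and by Spearman for GP9 alone (adjusted p = 0.0328). Without the 2 cows farthest from its median, 7 of the 10 genes had r above 0.5 with it in place of 2, where 2.75% of all tested genes had r above 0.5 over 20 cows, and r was 0.73 for PF4, 0.76 for GP9 and 0.63 for TUBB1, against 0.37, 0.59 and 0.22 over 20 cows. Relations with the T cell, B cell and natural killer cell sums, led by IL7R, MS4A1 and GNLY, passed for 0 genes, as did those with the mitochondrial percentage and the number of genes with a count.

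Calf BW was the variable of the study, and the comparison is the slope of each gene on it, as log2 fold change per kg, over 19 cows. By edgeR's quasi-likelihood test 0 of the 10 platelet genes had a false discovery rate (FDR, Benjamini-Hochberg over 16206 genes) below 0.05, as had 0.0% of all tested genes, and DESeq2 called 0 of the 10 and 1.15% of all. At an unadjusted p below 0.05, 1 of the 10 passed, ITGA2B, where 13.9% of all genes did and 6.78% did with a positive slope. Slopes were positive for 6 of the 10 and for 46.6% of all genes, with a median of 0.0056, against -0.00072 over all genes. The direction depended on the cows, the tool and the covariate. Without the cow with the 54 kg calf 3 of the 10 were positive, with a median of -0.016. With all 20 cows 2 of 10 were, with a median of -0.0042, and with voom 3 of 10, with a median of -0.0036. Total count as a covariate gave 5 of 10, with a median of -0.0022. The eosinophil and monocyte sums as covariates gave 8 of 10 each, with medians of 0.011 and 0.012. The erythroid and neutrophil sums gave 7 of 10 each, with medians of 0.013 and 0.0043. The same counts over all genes are not given for these alternatives, so a shift of all genes is not separated from one of the 10.

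ITGA2B had a slope of 0.021 per kg (SE 0.0068, n = 19, edgeR quasi-likelihood p = 0.00647, FDR = 0.196), and a DESeq2 FDR of 0.107. Leaving out each cow gave slopes from 0.015 to 0.024. Over all 20 cows its correlation with calf BW was r = 0.47 (permutation p = 0.0358) and rho = 0.51 (permutation p = 0.0232), 1 of 10 such relations, and r was 0.56 without the 2 cows farthest from the median calf BW. Without any 1 of 6 cows, those with the 35, 36, 38, 53, 54 and 56 kg calves, the permutation p rose above 0.05, to 0.0824 without the 56 kg calf, with r of 0.43, 0.46, 0.45, 0.45, 0.43 and 0.41. With the eosinophil sum as a covariate, a fit added after the data were seen, the slope was 0.0075 (edgeR p = 0.218, FDR = 0.791). IL5RA, which leads that sum, had a slope of 0.053 per kg (SE 0.019, edgeR FDR = 0.216).

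The other 9 genes had slopes within 2 standard errors of 0. PPBP had 0.015 per kg (SE 0.017), PF4 0.011 (SE 0.016), TUBB1 0.0089 (SE 0.0099) and GP1BA 0.022 (SE 0.049). ITGB3 had -0.0077 per kg (SE 0.012), GP9 -0.016 (SE 0.023), GP6 -0.015 (SE 0.011) and SELP -0.0022 (SE 0.015). THBS1 had 0.0023 per kg (SE 0.011, edgeR FDR = 0.954). The study chose THBS1 on these cows among its predictors of calf BW, from genes that changed over gestation. Its model joined several genes and drew on all 20 cows. The single-gene slope over 19 cows is a different measure and does not test that choice. GP6 had r = -0.45 with calf BW over 20 cows (permutation p = 0.0454), but -0.30 over the 19 without the 72.5 kg calf (permutation p = 0.208). Without the cow with the 54 kg calf the slopes of PF4, GP1BA and THBS1 turned negative, at -0.014, -0.066 and -0.0078. SELP, GP9, ITGB3 and GP6 then had -0.018, -0.057, -0.017 and -0.023, and PPBP and TUBB1 had 0.0028 and 0.0011 (edgeR p = 0.00717 and FDR = 0.209 for GP9).

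**Figure D5:**
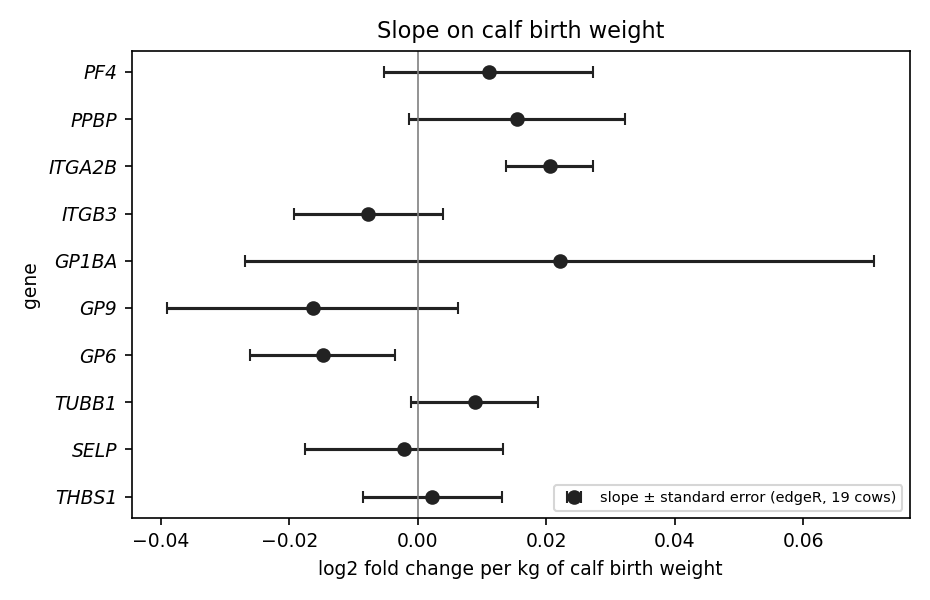
Slope on calf BW, as log2 fold change per kg (horizontal), of each of the 10 platelet genes (vertical) over 19 cows, with dots for the edgeR estimate and bars for 1 standard error. ITGA2B, at 0.021, lies farthest from 0 in standard errors, and GP1BA has the widest bar.

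Of the 46 wider genes tested, 0 passed an FDR of 0.05 by edgeR and 1 by DESeq2, which called 1.15% of all genes, and 9, or 19.6%, had an unadjusted edgeR p below 0.05, where 13.9% of all genes did. Of those 9, CD9, RGS18, VCL, TPM1, GATA1 and GFI1B had positive slopes, and all 6 followed ITGA2B, as did 1120 tested genes, 47.3% of which had a positive slope with an unadjusted p below 0.05. RASGRP2, PDE5A and TAL1 had negative slopes. PDE5A, the cyclic GMP phosphodiesterase that sildenafil inhibits, was the gene called by DESeq2 (FDR = 0.0207), with a slope of -0.041 per kg (SE 0.010, edgeR FDR = 0.111), and it had r = -0.55 with ITGA2B (permutation test, adjusted p = 0.0473). The largest positive slope among these 9 was that of GATA1, 0.050 per kg (SE 0.018, edgeR FDR = 0.222). ITGA2, the collagen-binding integrin chain, and LTBP1, which binds latent TGF-beta, had slopes of 0.0077 (SE 0.0063) and -0.0089 (SE 0.0079). The gene of highest median CPM in each role had an FDR of 0.434 or more: MPIG6B at 126 CPM, SRGN at 2197, BIN2 at 954, TLN1 at 1889 and NFE2 at 426.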

How the data were processed

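Libraries of polyA RNA were sequenced as paired reads of 100 bases. The authors checked reads with FastQC 0.11.9, trimmed them with Trimmomatic, aligned them with STAR 2.7.0b to a cattle genome and deposited raw counts per Entrez gene from featureCounts of Subread 2.0.3. The strand setting is not given in the sources used here, and labels and methods name different library kits. No library repeated another (190 pairs compared), and nothing beyond the cows themselves was replicated.

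These counts were scaled by TMM in edgeR 4.0.16, run in R 4.3.3, to CPM and to log2 CPM (prior count 2). A gene entered the quasi-likelihood fit of calf BW, made over 19 cows, when 5 or more cows had 10 or more counts, which left 16206 genes. Fits by limma 3.58.1 (voom) and DESeq2 1.42.0, all 20 cows, other size factors, filters and scales, covariates and leaving out each cow were alternatives. Partial correlations, the white cell covariates and the relations with ITGB3 and ITGA2B were added after seeing the data. The fit was tested on simulated counts, where edgeR recovered 78.5% of 200 genes set to change by 0.06 per kg, with 6.55% of its calls false, and DESeq2 80.5%, with 17.4% false. That slope is steeper than the edgeR slopes of the 10 genes over the 19 cows. Correlations were tested in Python 3.11.15 with scipy 1.17.1. Besides the 10 platelet genes, the text names the 2 genes of smallest edgeR p and the gene of highest median CPM of each wider list. It also names the 10 genes nearest to the mean z-score, the gene nearest to each member and the gene of highest median CPM of each other cell list. The genes that followed ITGB3 or ITGA2B, the markers at or near 0 and the other wider genes with a p below 0.05 were named after their values were seen. From the wider lists 1 further gene was removed and is not analysed here. The gene table used for symbols describes ARS-UCD2.0, not the assembly the reads were aligned to, so no positions are given. EPX and PRG2 of the eosinophil list matched no symbol. Members and lists were chosen with earlier results of these data known. Counting error and the number of cows limit the precision, most of all for GP1BA.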

Additional observations from a re-analysis of the deposited data

How the results depend on the processing

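No paired analysis was possible because the cows form 1 group with no shared replicate numbers. The count of 0 platelet genes called for calf BW held under every alternative run. With the filter of at least 50 counts in at least 10 cows only 9 of the 10 were tested. Over the 46 wider genes DESeq2 called 1. Over all genes, where edgeR called 0, DESeq2 called 187, all 20 cows gave 4, no filter on low counts gave 147, total count as a covariate gave 1 and leaving out single cows gave 0 to 34.

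Slopes near 0 changed sign. With voom they were -0.00061 for PF4, -0.062 for GP1BA and -0.0024 for THBS1, and with all 20 cows -0.0040 for PF4, -0.00031 for GP1BA, -0.0032 for TUBB1 and -0.0053 for THBS1. Covariates gave GP1BA -0.0058 (total count), SELP 0.0091 (erythroid), 0.0040 (neutrophil) and 0.0065 (monocyte), ITGB3 0.0035 (eosinophil) and 0.00091 (monocyte), and GP9 0.0028 (eosinophil). The causes were not tested. Leaving out single cows gave slopes from -0.014 to 0.020 for PF4, -0.066 to 0.038 for GP1BA, -0.018 to 0.0077 for SELP and -0.0078 to 0.012 for THBS1. The correlation of TUBB1 with calf BW was 0.17 in 19 cows and ran from -0.27 to 0.17 with single cows left out, and that of SELP from -0.22 to 0.0082.

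Of the pairs of platelet genes, 30 passed, 19 with total count held constant, 15 with the neutrophil sum held constant and 22 (19 of them positive) to 34 with single cows left out, where the median r ran from 0.47 to 0.62. The wider genes that passed numbered 11 to 19 with ITGB3 and 7 to 12 with ITGA2B. Depth limits GP1BA, GP9 and GP5, with few counts per cow.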
